A study of Mus musculus with 28 samples.

Results

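Forkhead genes encode transcription factors that share a winged-helix DNA-binding domain, the forkhead box, and are named by a subclass letter and a number. Members were the protein-coding genes on autosomes whose mm10 symbol is Fox, 1 letter from a to s and a number, which gave 41 of 20665 autosomal protein-coding genes. The 3 X-linked members were outside the rule. Around each gene, every consensus region of the histone variant H3.3 and of H3K27ac (acetylated lysine 27 of histone H3) was taken from the gene body and 50 kb on either side.

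Forkhead factors bind nucleosomal DNA, and FOXA factors are the classical pioneer factors, which can open closed chromatin ahead of other factors. Most subclasses are switched on in single lineages as germ layers and organs form, and many of their genes are known Polycomb targets in embryonic stem cells. FOXO, FOXK, FOXN2, FOXN3, FOXJ2, FOXJ3, FOXM1 and FOXP1 act more widely, in the response to insulin and stress, in metabolism and in the cell cycle. H3.3 is the histone H3 variant that is deposited outside DNA replication, and H3K27ac marks active promoters and enhancers.

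The regions came from CUT&RUN, in which an antibody brings a nuclease to the chromatin that carries its target, and the cut fragments are sequenced. The cells were ES-E14TG2a (E14) mouse embryonic stem cells in medium with LIF, and the 28 libraries comprised 7 for each of H3.3, H3K27ac, H3K122ac and a control without primary antibody. Each target had 2 Wildtype libraries, 2 of genotype H3f3a_AA_H3f3b_WTA from separate clones, and 1 each of H3f3a_AA_H3f3b_WTWT, H3f3a_WTWT_H3f3b_AA and H3f3a_WTA_H3f3b_AA. H3f3a and H3f3b are the genes that encode H3.3, A stands for the K122A change named in the title of the study, and no treatment was given. The values analysed were 2 lists of region positions, 1 for H3.3 and 1 for H3K27ac. They hold no value per library and no height, so genotypes could not be compared, read depth is unknown, nothing below has replicates, and no test was made. H3K27ac was present at the ends of 4 of 4 embryonic stem cell genes checked (Pou5f1, Sox2, Nanog, Esrrb) and of 0 of 4 primitive endoderm genes (Gata4, Gata6, Sox17, Sox7). The share over all autosomal protein-coding genes was 40.6%. H3.3 was at the ends of 1 of 4 and 2 of 4, against 16.8% of all genes. These genes were chosen after the values were seen, so they are a description and not a test of the cells.

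Promoter sequences are shown for 8 members, as examples of the 3 classes of genes described below, which are set by the marks at the gene ends and not by marks on these bases. They are the 250 bases before the annotated start, 5′ to 3′ on the strand of the gene, from RefSeq (GRCm38.p6, the coordinates of mm10), which matched 26 of the 41 members, and every CG dinucleotide is in capitals. The first 4 are the members among these 26 whose H3.3 region at an end is widest and that lack H3K27ac there: Foxa2 (chr2:148046970-148047219, minus strand), Foxf2 (chr13:31625566-31625815, plus strand), Foxd2 (chr4:114908899-114909148, minus strand) and Foxb2 (chr19:16873831-16874080, minus strand). The next are the pair, among the same 26, whose H3K27ac region at an end is widest: Foxr1 (chr9:44440869-44441118, minus strand) and Foxj3 (chr4:119539411-119539660, plus strand). The last, Foxd3 (chr4:99656049-99656298, plus strand) and Foxi1 (chr11:34208090-34208339, minus strand), have neither mark at a gene end and come first by name. CG occurred 6, 21, 16 and 7 times in the first 4, 15 and 34 times in the acetylated pair, and 21 and 4 times in the last pair, so the counts of the 3 sets overlapped. Of these 8 sequences, H3.3 regions lay on those of Foxf2, Foxd2 and Foxb2. The H3.3 region inside Foxa2 stopped 133 bp short of its outermost start but covered listed starts at 148045464 and 148045948. The H3K27ac regions of Foxr1 and Foxj3 began 778 and 895 bp downstream of their starts. No H3K27ac region touched the promoter sequence, with the 50 bases after the start, of any of the 26 members. Over all genes, 3747 of 16457 such sequences were touched.
Foxa2: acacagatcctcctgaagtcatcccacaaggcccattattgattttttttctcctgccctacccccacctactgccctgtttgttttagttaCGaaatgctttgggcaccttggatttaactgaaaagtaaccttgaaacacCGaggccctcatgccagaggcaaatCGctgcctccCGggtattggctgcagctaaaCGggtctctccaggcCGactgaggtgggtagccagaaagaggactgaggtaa
Foxf2: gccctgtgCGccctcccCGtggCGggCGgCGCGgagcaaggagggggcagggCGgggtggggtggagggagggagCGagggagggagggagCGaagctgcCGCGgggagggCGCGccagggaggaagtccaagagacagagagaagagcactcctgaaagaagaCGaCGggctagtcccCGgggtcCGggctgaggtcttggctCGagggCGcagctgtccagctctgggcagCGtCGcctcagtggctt
Foxd2: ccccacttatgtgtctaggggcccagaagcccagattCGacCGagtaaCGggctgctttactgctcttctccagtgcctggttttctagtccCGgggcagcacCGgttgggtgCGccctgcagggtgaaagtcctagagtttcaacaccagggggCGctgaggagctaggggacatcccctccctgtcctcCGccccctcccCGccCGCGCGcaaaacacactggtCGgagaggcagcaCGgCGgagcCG
Foxb2: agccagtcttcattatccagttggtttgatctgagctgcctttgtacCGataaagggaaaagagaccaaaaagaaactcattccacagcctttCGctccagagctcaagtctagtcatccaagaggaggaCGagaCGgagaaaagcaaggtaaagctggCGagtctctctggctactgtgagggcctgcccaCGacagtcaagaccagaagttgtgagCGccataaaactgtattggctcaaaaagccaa
Foxr1: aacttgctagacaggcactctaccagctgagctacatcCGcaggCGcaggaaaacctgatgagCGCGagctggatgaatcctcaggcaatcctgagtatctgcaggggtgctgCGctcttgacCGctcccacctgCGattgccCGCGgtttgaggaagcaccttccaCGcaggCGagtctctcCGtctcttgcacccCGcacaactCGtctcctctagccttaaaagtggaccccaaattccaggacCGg
Foxj3: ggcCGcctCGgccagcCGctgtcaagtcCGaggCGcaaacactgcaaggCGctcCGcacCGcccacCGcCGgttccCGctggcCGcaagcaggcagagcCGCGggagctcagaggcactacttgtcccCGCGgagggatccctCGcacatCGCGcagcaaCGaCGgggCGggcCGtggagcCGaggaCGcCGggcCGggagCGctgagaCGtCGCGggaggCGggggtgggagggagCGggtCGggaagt
Foxd3: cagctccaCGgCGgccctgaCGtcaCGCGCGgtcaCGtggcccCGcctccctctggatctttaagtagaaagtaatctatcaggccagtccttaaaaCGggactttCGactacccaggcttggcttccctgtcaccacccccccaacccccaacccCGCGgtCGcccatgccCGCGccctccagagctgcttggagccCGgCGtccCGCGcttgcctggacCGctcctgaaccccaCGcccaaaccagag
Foxi1: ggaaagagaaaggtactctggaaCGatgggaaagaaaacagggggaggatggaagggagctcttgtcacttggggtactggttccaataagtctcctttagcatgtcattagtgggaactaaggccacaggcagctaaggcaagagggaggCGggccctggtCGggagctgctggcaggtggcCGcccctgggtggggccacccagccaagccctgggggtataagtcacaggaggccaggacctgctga

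CG was more frequent in forkhead promoters than over all genes. Over the 300 bases of the table, which include 50 after the start, the 26 members had a median of 23.5 CG dinucleotides, from 5 to 59, against 14 over 16457 genes. The medians were 18.5 in 14 members with H3.3 alone at a gene end, 42 in 3 with H3K27ac alone and 25 in 9 with neither. Over all genes the corresponding medians were 22, 21 and 5. Foxd3, Foxi3, Foxj2, Foxo1, Foxp4 and Foxn4, all without either mark at an end, had 25, 31, 37, 31, 33 and 22 CG, while Foxi1, Foxi2 and Foxn1 had 6, 5 and 8. Members without a mark were thus of both kinds, rich and poor in CG. The forkhead core TGTTTAC, on either strand, was in the promoter of Foxa1 and in 2.95% of all promoters. TGTTTGC, likewise on either strand, was in those of Foxj3 and Foxp1 and in 4.61% of all. The cores differ at 1 base, and no member had both in this window.

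Of the 41 forkhead genes, 23 carried H3.3 without H3K27ac at their ends (background 5.55%). A region was assigned to a gene end if at least 1 bp of it lay no more than 1 kb from the left or the right limit of the annotated gene. Of the 41 genes, 23 had an H3.3 region there (56.1%, exact 95% interval 39.7 to 71.5%), and the background over all autosomal protein-coding genes was 16.8%. An H3K27ac region was present at 7 (17.1%, 7.15 to 32.1%), against a background of 40.6%. No member had both, against 11.2% of all genes. A count of 0 allows a share of up to 7.32% when the limit is set at 3 counts of the 41, and of up to 8.60% by the exact 95% interval. The remaining 11 (26.8%, 14.2 to 42.9%) had neither, against 53.9%. The family thus split into 23 genes with H3.3 alone (background 5.55%), 7 with H3K27ac alone (29.3%) and 11 with neither. The intervals cover counting over genes only, and linked members can share a region. The absence of genes with both depends on the window: with 2.5 kb, Foxp1, Foxa3, Foxo3 and Foxh1 had both, and in the gene body or within 1 kb of it 7 members did. Over the gene body and 50 kb on either side, 32 members had an H3.3 region (78.0%, background 43.3%) and 26 an H3K27ac region (63.4%, background 76.0%), so the acetylated share was nearer to the background at this distance than at the gene ends.

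**Figure D1:**
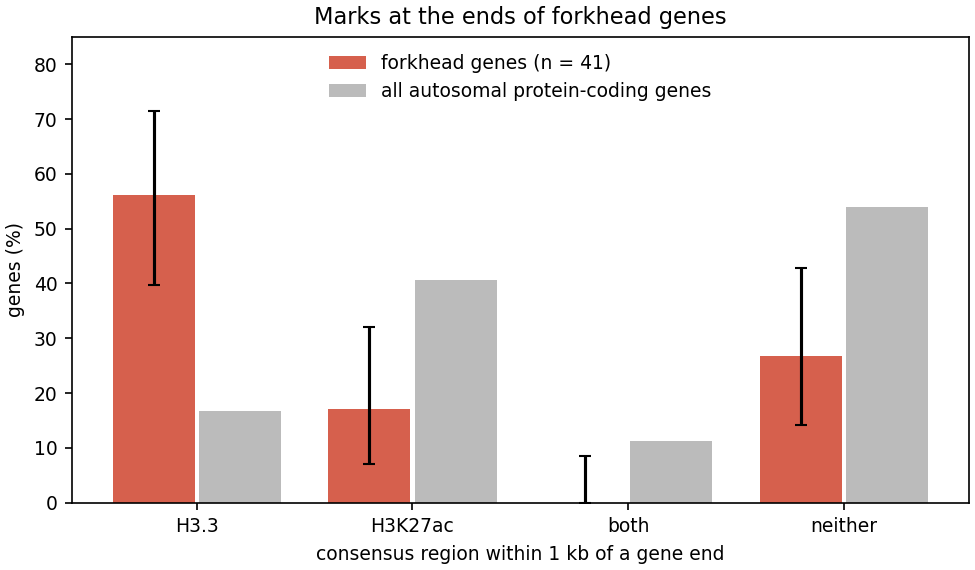
Share of genes (%) with an H3.3 region, an H3K27ac region, both or neither within 1 kb of a gene end, for the 41 forkhead genes (red bars, with exact 95% intervals over genes) and for all 20665 autosomal protein-coding genes (grey bars). H3.3 was at 56.1% of forkhead genes and 16.8% of all genes, H3K27ac at 17.1% and 40.6%, and both marks at 0 and 11.2%.

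H3.3 regions at forkhead genes were wide. Over the 23 genes the widest region at an end had a median of 1609 bp, from 211 to 3645 bp, against 487 bp over the 3470 genes of the whole set with such a region. A region of 1 kb or more was present at 15 members (36.6%, background 3.00%) and one of 3 kb or more at 6 (14.6%, background 0.615%). Those 6 genes were Foxa2, Foxf1, Foxf2, Foxd2, Foxb2 and Foxb1. The widest H3K27ac region at the 7 acetylated members had a median of 862 bp, from 381 to 2921 bp, against 1400 bp over 8383 genes. The order of these 2 medians turned with the window: they were 2199 bp (3 members) and 1470 bp with 500 bp, and 2571.5 bp (14 members) and 1672 bp with the gene body.

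**Figure D2:**
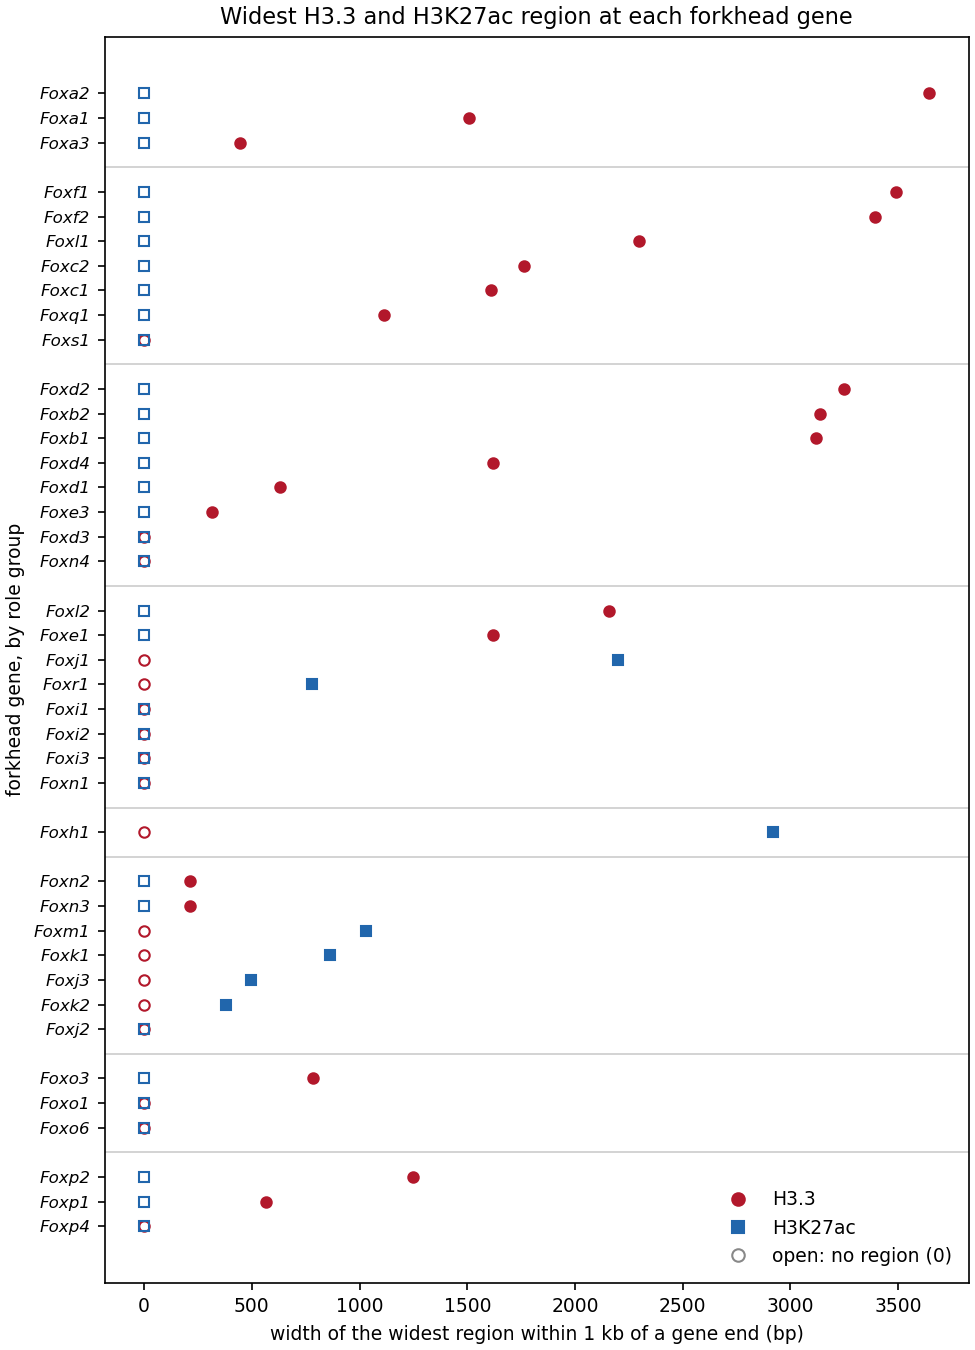
Width (bp) of the widest H3.3 region (red circles) and H3K27ac region (blue squares) within 1 kb of either end of each of 40 forkhead genes, grouped by role. Open symbols at 0 mark genes without a region. Each gene has at most 1 filled symbol, and the 6 widest H3.3 regions, over 3 kb, are at Foxa2, Foxf1, Foxf2, Foxd2, Foxb2 and Foxb1.

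All 3 endoderm pioneer genes had H3.3 alone at their ends (background 5.55%). Foxa2, required for node, notochord and definitive endoderm, carried 2 regions, 1 of 3294 bp that covered 80.5% of the gene and 1 of 3645 bp that began 981 bp past its 3′ end. Of 3470 genes with H3.3 at an end, 90 had a wider region than the latter. Foxa1, a pioneer factor of endoderm, lung and prostate, had 6 regions between 209 and 1739 bp in and around the gene, 6572 bp in all, and Foxa1 overlaps the annotated gene Ttc6. Foxa3, a liver factor, had 1 region of 444 bp at its start and 2 others in its window, of 696 and 881 bp, that were nearest to other genes, and an H3K27ac region lay 1334 bp from the gene. The window of Foxa3 thus held more H3.3 regions than that of Foxa2, and each was shorter than either region of Foxa2.

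Among the genes of mesoderm, vessels and gut mesenchyme, 6 of 7 had H3.3 alone (background 5.55%), and they lie in 2 groups of linked genes. Foxf1, a lung and gut mesenchyme factor, Foxc2, of lymphatic vessels, and Foxl1, of the gut mesenchyme, lie on chromosome 8 between 121084386 and 121130644. That stretch and its 50 kb flanks held 8 H3.3 regions of 12036 bp and no H3K27ac region. Of all autosomal protein-coding genes, 71 had more H3.3 sequence in this window than these 3 genes, which share it. The region over Foxf1 measured 3488 bp, from 121082215 to 121085702, that over Foxl1 2299 bp and that inside Foxc2 1763 bp. The regions alternated with bare sequence and did not run across the cluster, and each of the 3 genes had its own. The nearest H3K27ac region lay 410999 bp from Foxf1.

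On chromosome 13, Foxq1, a hair and stomach factor, Foxf2, a palate and gut factor, and Foxc1, of the anterior eye and vessels, span 252466 bp. With the sequence between them and the flanks, this stretch held 10 H3.3 regions of 11917 bp and 3 H3K27ac regions of 4804 bp. Foxf2 had the widest, 3392 bp from 31624115 to 31627506, reaching 1701 bp upstream and 1690 bp downstream of its start, and a further 2057 bp region inside the gene. Both regions together covered 67.0% of Foxf2. Foxc1 had 5 regions, of which 1 of 1120 bp covered its start and 1 of 1609 bp its 3′ end, and Foxq1 had a single region of 1113 bp over its left end in the genome. H3.3 thus lay at starts as well as 3′ ends in this group. Foxs1 was the exception, with its nearest H3.3 region 100167 bp away and its nearest H3K27ac region 39370 bp away.

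Of the 9 genes of neural tissue, neural crest, eye and epiblast, 7 had H3.3 alone (background 5.55%). Foxd2 and Foxe3, the lens factor, are neighbours 15544 bp apart on chromosome 4. The region over Foxd2 measured 3246 bp, from 114906949 to 114910194, and covered 74.5% of the gene. It was flanked by regions of 2886 and 1313 bp nearest the same gene, while Foxe3 had only regions of 300 and 317 bp. Foxb1, of the hypothalamus and hindbrain, had 3120 bp over 80.3% of the gene, and Foxb2 had 3136 bp that reached 2638 bp upstream of its start. Foxd2, Foxb1 and Foxb2 thus each had a wide region that ran across an end of the gene.

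Foxd1, of kidney stroma and retina, had a region of 632 bp at its start, and a wider one of 2357 bp lay 8323 bp beyond its 3′ end. Foxd4, of early neural ectoderm, had 1621 bp over 77.8% of the gene.

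Foxd3, a factor of neural crest and of pluripotent epiblast cells, had neither mark at an end. Its nearest H3.3 region, of 629 bp, lay 2585 bp upstream. The window of Foxd3 held 7 H3K27ac regions, and the nearest protein-coding gene of every one was Foxd3. The widest measured 4121 bp, from 99639144 to 99643264 on chromosome 4, 13035 bp upstream of the gene, and contained a second H3.3 region of 555 bp. Regions of 2222 and 2726 bp lay 18704 bp upstream and 10634 bp downstream. Foxd3 was the member of this group with acetylation on both sides and none at the gene. Foxn4, of retinal and spinal interneurons, had a single H3K27ac region of 757 bp inside the gene and no H3.3 region in its window.

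**Figure D3:**
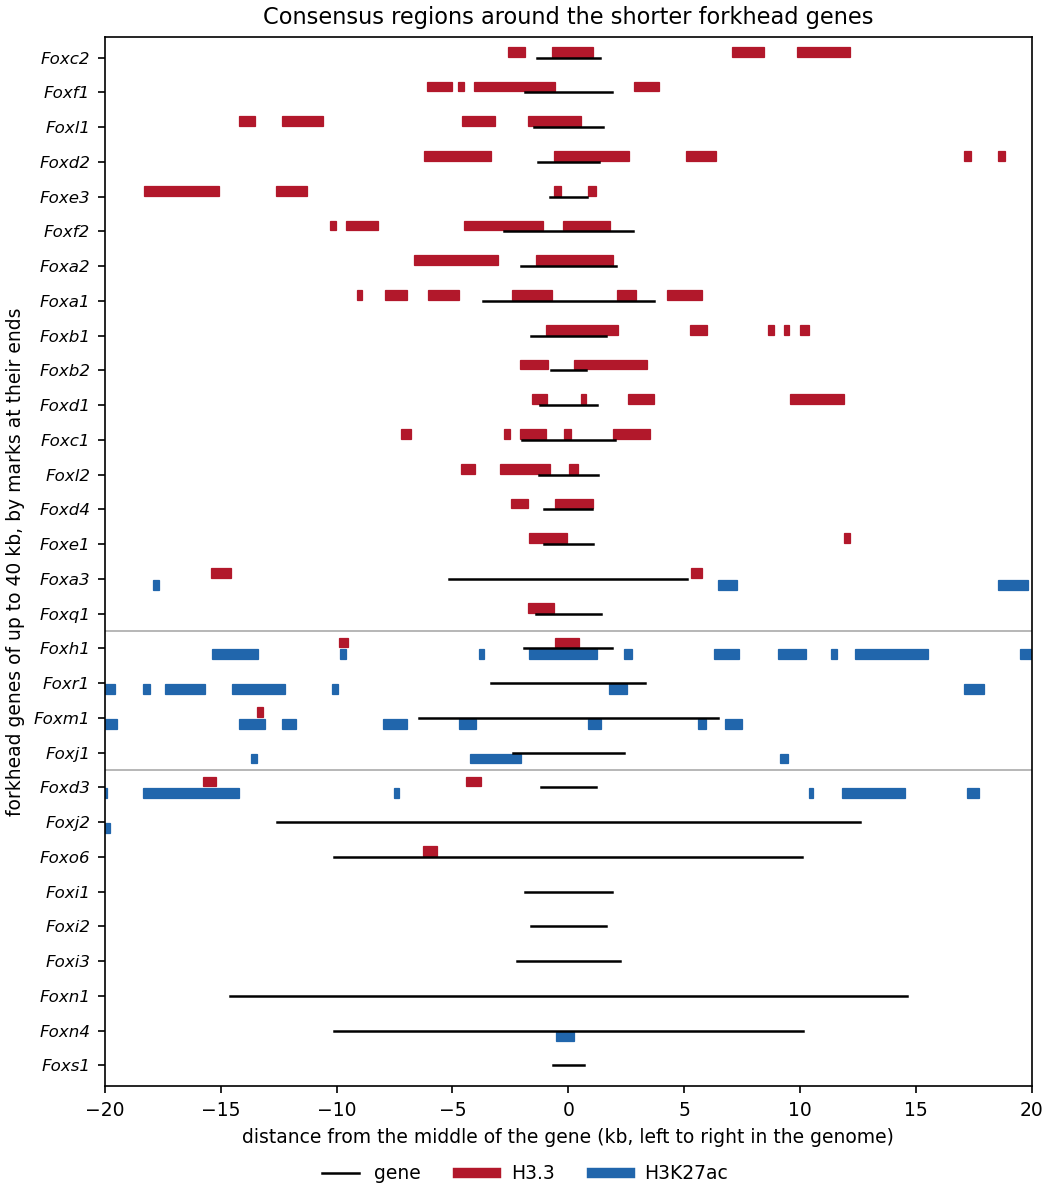
H3.3 (red) and H3K27ac (blue) regions within 20 kb of the middle of each of 30 forkhead genes of up to 40 kb (black lines), ordered by the marks at their ends, with H3.3 alone first, H3K27ac alone next and neither last, and grey lines between. The x axis is the distance in kb, left to right in the genome, and the narrowest regions are drawn at a minimum line width. No H3K27ac region touches a gene in the first block, and Foxd3 has H3K27ac on both sides.

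The genes of ectoderm, thyroid, cilia and gonad were mixed. Foxl2, the ovary factor, had a region of 2160 bp that reached 1708 bp upstream of its start, and Foxe1, of the thyroid, one of 1620 bp over its left end. Foxj1, the master regulator of motile cilia, had H3K27ac alone, in a region of 2199 bp of which 348 bp lay in the gene. Foxr1 had H3K27ac alone as well, in a region of 780 bp inside the gene. Foxi1, of ionocytes and the inner ear, Foxi2, Foxi3, of ectodermal organs, and Foxn1, of the thymic epithelium, had neither mark in the gene or at its ends. For Foxi2 and Foxi3 no region of either mark lay within 50 kb. These were the 2 members without any region, and the nearest H3.3 regions lay 730511 and 583040 bp away.

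Foxh1, the SMAD partner that carries the Nodal signal in the epiblast, was the most acetylated short member. An H3K27ac region of 2921 bp, from 76668034 to 76670954 on chromosome 15, covered 77.2% of the gene. An H3.3 region of 1006 bp lay inside it, 1337 bp from the nearer gene end, so that Foxh1 had both marks at the same position but H3.3 outside the end windows. Foxh1 overlaps the annotated gene Kifc2, so the 2 genes share the acetylated region, and a further region of 360 bp lay 512 bp past its right end. Its window held 21 H3K27ac regions, but only the one of 2921 bp had Foxh1 as a nearest protein-coding gene. The others, with the region of 360 bp, were nearest to other genes.

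The widely expressed members had H3K27ac mostly inside the gene. It was in the gene or within 1 kb of it at 6 of these 7 (background 52.9%) and at a gene end at 4 (background 40.6%). All of these 6 but Foxm1 are longer than 40 kb, and H3K27ac was in the body of 67.2% of all genes of that length. Foxm1, a driver of mitotic genes, had 3 H3K27ac regions at its ends, the widest of 1028 bp, and the nearest protein-coding genes of 2 of these end regions were Rhno1 and Tex52. At Foxk1, a repressor of autophagy and regulator of glycolysis, the region at the end, of 862 bp, was nearest to Ap5z1, and 9 others lay in the gene. At Foxk2 and Foxj3 the region at the end measured 381 and 495 bp and began 598 and 895 bp downstream of the start. None of these 4 genes had an H3K27ac region over an annotated end. Foxn2 and Foxn3, a checkpoint repressor, had H3.3 regions of 211 bp each, next to their left and right end in the genome. At Foxn3 that region lay 113641 bp from the nearest listed start, and the gene held 22 H3K27ac regions. Foxj2 had neither mark at the gene, with the nearest H3K27ac region 7205 bp away.

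Among the FOXO genes, which act downstream of insulin and stress, Foxo1 and Foxo3 had 12 H3K27ac regions each inside the gene and none at an end. These covered 14.4% of Foxo1 and 12.3% of Foxo3. Foxo3 also had an H3.3 region of 782 bp that began 658 bp upstream of its start. Foxo6, a brain-enriched member, had an H3.3 region of 613 bp inside the gene and no H3K27ac region in its window.

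The 3 long Foxp genes differed from each other. Foxp1, expressed in many tissues, spans 597405 bp and held 36 H3K27ac regions, 33 of them within 110 kb of its 3′ end. An H3.3 region of 565 bp lay 409 bp past its 5′ end. Of its 3 listed starts, the innermost was covered by an H3K27ac region of 1583 bp, and the outermost had an H3.3 region of 615 bp beginning 81 bp upstream. Foxp2, a factor of striatal and cortical circuits, spans 540629 bp and had 1 H3.3 region of 1250 bp over its left end and no H3K27ac region within 50 kb. Foxp4 had 6 H3K27ac and 3 H3.3 regions inside the gene, and 2 of the H3.3 regions, of 487 and 612 bp, touched H3K27ac. Foxp1 therefore had the marks at separate starts, Foxp2 had H3.3 alone and Foxp4 had them together inside the gene.

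**Figure D4:**
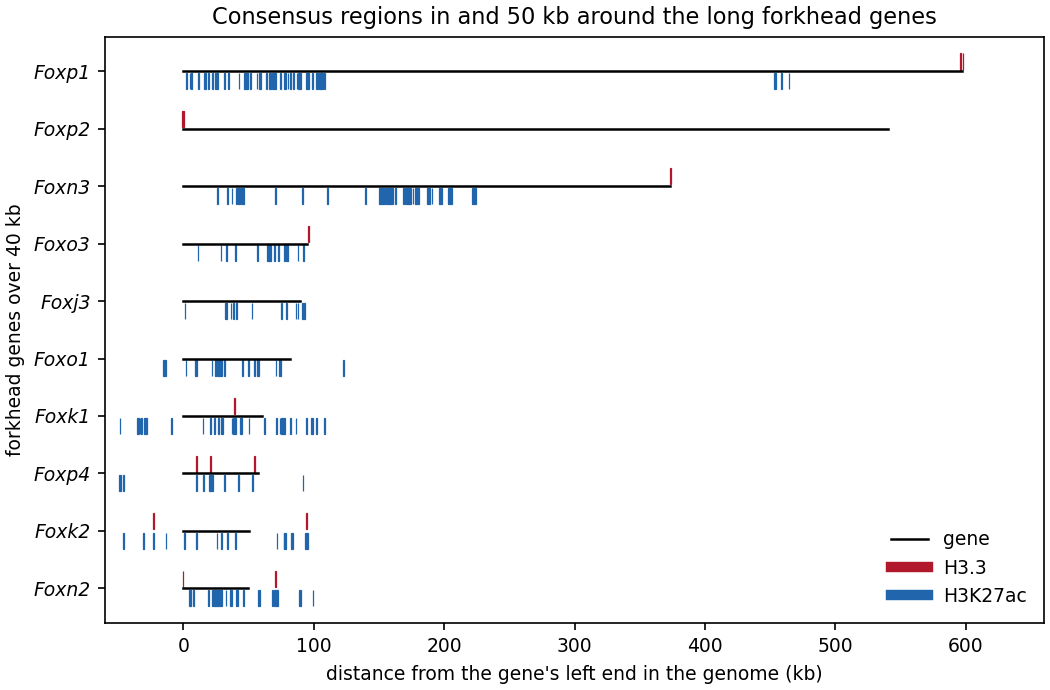
H3.3 (red, above the line) and H3K27ac (blue, below the line) regions in and 50 kb around the 10 forkhead genes longer than 40 kb. The x axis is the distance in kb from the left end of the gene in the genome, and narrow regions are drawn at a minimum line width. H3K27ac lies inside 9 of the 10 genes, Foxp2 being the exception, and 33 of 36 regions of Foxp1 lie near its left end.

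H3K27ac lay in the gene body of a larger share of long than of short members. Of 10 members longer than 40 kb, 9 had H3K27ac in the body. It was in the body and not at an end in 6 of the 10 (60%), against 28.1% of all genes of that length. Of 31 shorter members, 5 had it in the body. In 1 of the 31 (3.23%) it was in the body and not at an end, against 6.28% of all shorter genes. Over all genes, H3K27ac was in the body of 67.2% of 5743 genes longer than 40 kb and of 44.1% of 14922 shorter ones, so a difference by length is also present outside the family. The limit of 40 kb was chosen after the values were seen. H3.3 at a gene end was present at 5 of 10 long and 18 of 31 short members, against 17.1% of long and 16.7% of short genes over the whole set. H3K27ac at a gene end was present at 3 of 10 long and 4 of 31 short members, against 40.3% and 40.7%. The 18 short genes with H3.3 alone were at most 10257 bp long, and 17 of them had a region that touched the gene body. H3.3 covered at least 50% of the gene in 7 members (background 0.586%), all among these 18: Foxa2, Foxb1, Foxd4, Foxd2, Foxl1, Foxf2 and Foxc2. The 18 were picked for a short length and a region at an end. Over the 464 genes of the whole set with H3.3 alone and a length of up to 10257 bp the share was 21.3%, beside 38.9% of the 18.

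The short forkhead genes with H3.3 alone, which by this choice have no H3K27ac at their ends, lay farther from acetylated chromatin than the like genes of the whole set. The distance from these 18 genes to the nearest H3K27ac region had a median of 84078.5 bp, against 24423 bp over the 464 genes. It was over 20 kb for 17 of the 18, and the median of the 464 genes was over 20 kb as well. The distance was shortest at Foxa3, with 1334 bp. Linked genes count separately in these medians, though Foxf1, Foxc2 and Foxl1 share a stretch without H3K27ac (410999, 437806 and 426057 bp). The medians were not recomputed with 1 member per linked group. Over all 23 members with H3.3 alone the median was 56256 bp, against 13570.5 bp over the 1146 genes of the whole set with H3.3 alone. No H3K27ac region lay within 50 kb of 12 of the 23 members, and of 322 of the 1146 genes. Members with neither mark at an end had a median distance of 10391 bp, against 30485.5 bp over all genes with neither, the opposite order to the genes with H3.3 alone. These members include Foxo1, Foxp4 and Foxn4, which contain H3K27ac and have a distance of 0, so their median depends on genes acetylated inside the body. The 23 include 4 long genes, Foxp1, Foxn3, Foxo3 and Foxn2, that contain H3K27ac and have a distance of 0.

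**Figure D5:**
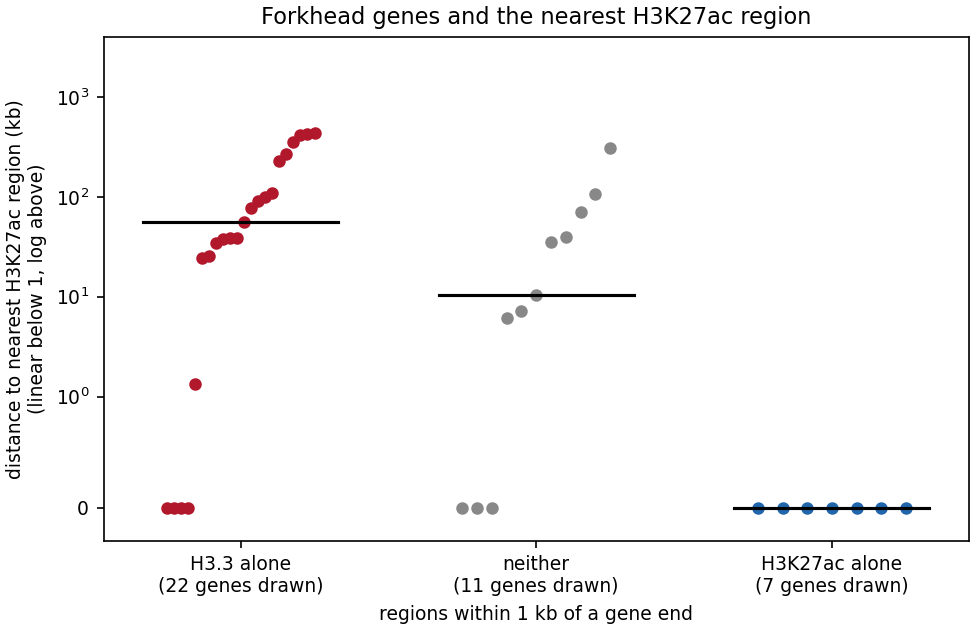
Distance (kb) from each of 40 forkhead genes to the nearest H3K27ac region, for genes with H3.3 alone (red), neither mark (grey) and H3K27ac alone (blue) at their ends, on an axis that is linear below 1 kb and logarithmic above. Points are genes and black lines are medians over all 41 members, at 56256, 10391 and 0 bp, and the points of genes with H3.3 alone reach highest.

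In the whole of the forkhead loci, H3.3 regions overlapped H3K27ac in a smaller share than over all autosomes. The 41 windows held 85 H3.3 regions covering 86934 bp, of median width 696 bp (452 bp for all 5377 autosomal H3.3 regions), and 270 H3K27ac regions covering 319883 bp, of median width 801 bp (812 bp for all autosomal H3K27ac regions). There were 2 or more H3.3 regions at 24 genes, 1 at 8 and none at 9. The median per gene was 2, against 0 over all autosomal protein-coding genes. Of the 85 regions, 13 lay in the windows of more than 1 member and enter the count of each of these genes. An H3K27ac region was touched by 14 of the 85 (16.5%, exact 95% interval 9.31 to 26.1%), against 47.9% of all autosomal H3.3 regions. Of the 69 whose nearest protein-coding gene was a forkhead gene, 5 touched one (7.25%, 2.39 to 16.1%), and these lay at Foxh1, Foxp4 (2 regions), Foxd3 and Foxk1. Both intervals treat regions as independent, though many lie at the same gene and the intervals are then too narrow. Of the 69, 55 were nearest to the 18 short genes with H3.3 alone, which were picked for having such a region at an end. This count is therefore a description of where the 69 lie. Of the 154 H3K27ac regions nearest to a forkhead gene, 79.2% touched a member longer than 40 kb. Longer genes hold more sequence that a region can touch, and the like share over all genes was not computed. The H3.3 regions closest to the limit of the windows lay 46453 bp from Foxl1, inside it, and 51964 bp from Foxh1, outside it, and the H3K27ac regions 49276 bp from Foxn2 and 50741 bp from Foxs1.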

How the data were processed

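CUT&RUN regions of E14 cells were used as deposited. Per the submitters' processing notes, Bowtie2, SAMtools, deepTools and MACS2 and the build mm10 were used, with no versions or roles. How single libraries were joined into a consensus, and which genotypes entered it, is not given in the sources used here. Each deposited line gives a chromosome with 2 positions, and no score or value per library, and starts were raised by 1 to count from 1. Per the labels' protocols, H3K27ac and H3.3 libraries differed in the nuclease fusion and in the salt at which digestion ended, so the sizes of the 2 lists do not compare amounts. The H3K122ac libraries and the controls have no part in the values.

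Genes came from the RefSeq table of GRCm38.p6 (matched by symbol), and start sites from the RefSeq promoter table, of which the outermost start was used for sequence. The gene table gives no strand, so ends, not starts, are the main measure. Exons, introns and UTRs were not assigned. Regions on sex chromosomes and scaffolds were left out. Overlap was computed with Python 3.11.15, pandas 2.3.3 and numpy 2.4.6, intervals (Clopper-Pearson, 95%) with scipy 1.17.1, and the code was tested on simulated data. The members, role groups and windows were chosen with earlier results of these data known. The groups name roles, 1 listed name was not matched, and 1 member is not reported here by name, though it is in the counts and medians. Neighbouring genes are named only for regions of 5 kb or more, except Ttc6, Kifc2, Rhno1, Tex52 and Ap5z1, the genes that share or lie next to a region described, and the genes of the cell check, which were all chosen after the values were seen. Alternatives covered the gene-end window, the gene body, start sites, linked genes, the flank, the nearest gene, the wider 50% of regions and the overlap.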

Additional observations from a re-analysis of the deposited data

How the results depend on the processing

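Region positions limit every result: no height, library or depth stands behind a region, so a gene without one may lie just under the threshold of the caller. Of 39 alternative values, 26 stayed close to the value reported (counts within 1.5 times, shares and medians within their interval) and 13 moved beyond it. Members with H3.3 at an end numbered 21 at 500 bp (background 15%), 24 at 2.5 kb (19.3%) and 27 with the gene body (20.6%). They numbered 19 with the wider 50% of regions (8.9%) and 18 of 35 with 1 member per linked group (16.8%). At start sites, where fewer members were counted, 13 of the 26 with a listed start had H3.3 within 1 kb (17.3%). Members with H3K27ac at an end numbered 3 at 500 bp (background 35.1%), 11 at 2.5 kb (46.1%), 14 with the gene body (52.9%), 4 with the wider 50% of regions (29.1%) and 4 of 26 at start sites (37.8%). Members with both marks numbered 4 at 2.5 kb (13.7%), 7 with the gene body (15.8%) and 1, Foxp1, at start sites (11.3%). H3K27ac regions in the loci numbered 150 with flanks of 10 kb, 154 when nearest to a forkhead gene and 133 among the wider 50%. The share of H3.3 regions touching H3K27ac was 7.25% when the nearest gene was a forkhead gene. The median H3K27ac width at gene ends, 862 bp and below that of all genes, was 2199 bp at 500 bp and 2571.5 bp with the gene body, both above that of all genes (1470 and 1672 bp). These values stayed within the interval of a median over 7 genes, which spans their whole range. No paired analysis was possible because the lists of regions carry no replicate.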

Other observations

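The windows of forkhead genes also held regions of their neighbours. Of the 85 H3.3 regions, 16 were nearest to another protein-coding gene, and 9 of these 16 touched H3K27ac, against 5 of the 69 nearest to a forkhead gene. Of the 270 H3K27ac regions, 116 were nearest to another gene. The widest, of 13389 bp, lay in Slc2a3, the gene of the glucose transporter GLUT3, 46915 bp from Foxj2, and touched an H3.3 region. A region of 5597 bp in Btf3, which encodes a subunit of the nascent polypeptide-associated complex, lay 37917 bp from Foxd1. The third region of 5 kb or more, of 5178 bp, lay inside Foxn3.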
